A study of Mus musculus with 14 samples.

Results

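Cells collected on day 18 (D18, 3 libraries) of a chemical reprogramming protocol were compared with cells collected on day 7 (D7, 3 libraries) of the same protocol, so 6 of the 14 mouse libraries of the series enter the comparison. Both groups began as fibroblasts of C57BL/6J embryos (E13.5), are labelled as reprogramming intermediates and were kept on Matrigel in M7 medium, and they differ in the labels by time alone. M7 is a mixture of Neurobasal and DMEM/F12 with N2 and B27 supplements, the B27 without vitamin A. It held basic FGF (bFGF), the GSK3 inhibitor CHIR-99021, which switches on Wnt signalling, the BMP receptor inhibitor LDN193189, the TGF-beta receptor inhibitor A 83-01 and the Hedgehog agonist Hh-Ag1.5. It also held RG108, an inhibitor of DNA methyltransferases, BMS-345541, an inhibitor of the kinase IKK that activates NF-kappaB, and the casein kinase inhibitor CKI-7. Per the labels' protocols, cells whose appearance matched a successful induction were scraped for RNA, so both groups are selected cells. The other groups, used here for levels alone, are cells of day 32 in a second medium (D32, n = 3), primary retinal pigment epithelial cells (P-RPE, 2 libraries) and the starting fibroblasts (MEF, n = 3). Whether replicates came from separate cultures is not in the labels, and every p here is therefore set by a spread between libraries that may be technical.

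Astrocytes, the star-shaped glia of the brain, are recognised by the filament protein GFAP and by the channels, transporters and secreted proteins with which they serve neurons. Ependymal cells, glia that line the brain's ventricles, carry tufts of motile cilia, which are built from dynein motors, radial spokes and a central pair of microtubules under control of the transcription factors FOXJ1 and RFX. Both types leave the cell cycle as they mature, and cell cycle genes in non-dividing cells are held off by the DREAM complex, which binds E2F and CHR sites in their promoters.

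Total counts ran from 34560073 to 38085076 per library at D18 and from 32352405 to 38425811 at D7. The D18 libraries were less alike than the D7 libraries: edgeR's common coefficient of biological variation, the relative spread of a typical gene between replicates, was 0.222 at D18 and 0.150 at D7. Mitochondrially encoded genes took 1.64% to 2.26% of counts at D18 and 3.30% to 3.67% at D7, and the 10 genes with most counts took 8.29% to 10.3% at D18 and 5.46% to 5.79% at D7. Pairs of D18 libraries stood furthest apart between replicates 2 and 3, where 2005 genes differed 2-fold or more, and the cilia genes of replicate 2 and the matrix genes of replicate 3 stand apart in the results below. Levels are CPM, read counts brought to a common library size, with sizes scaled by edgeR's trimmed mean of M values, listed for replicates 1, 2 and 3 in that order, and changes are log2 D18 over D7. In bulk RNA, fewer cells of a type and less RNA per cell cannot be told apart.

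Of 17438 genes with enough counts to test, 5596 (32.09%) rose and 5162 (29.60%) fell by edgeR's quasi-likelihood test at a Benjamini-Hochberg adjusted p under 0.05, and 6680 did not pass and are written as not called below. Together 10758 genes (61.69%) were called, and for 10626 of them the D18 and D7 libraries did not overlap. A lack of overlap reported below is therefore usual for a called gene and sets none apart. Of the rises 3532 (20.25% of genes tested) were of 2-fold or more, and of the falls 2528 (14.50%). Steep changes were mostly rises, and 670 genes were up and 164 down at least 16-fold. With library totals alone as the scale, the median gene moved by -0.23 (log2), and 4433 genes rose and 6645 fell, so that 40% of the called genes were rises in place of 52%. These shares are the background against which each gene list below is read, together with the median log2 change of 0.01 over all genes tested.

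**Figure D1:**
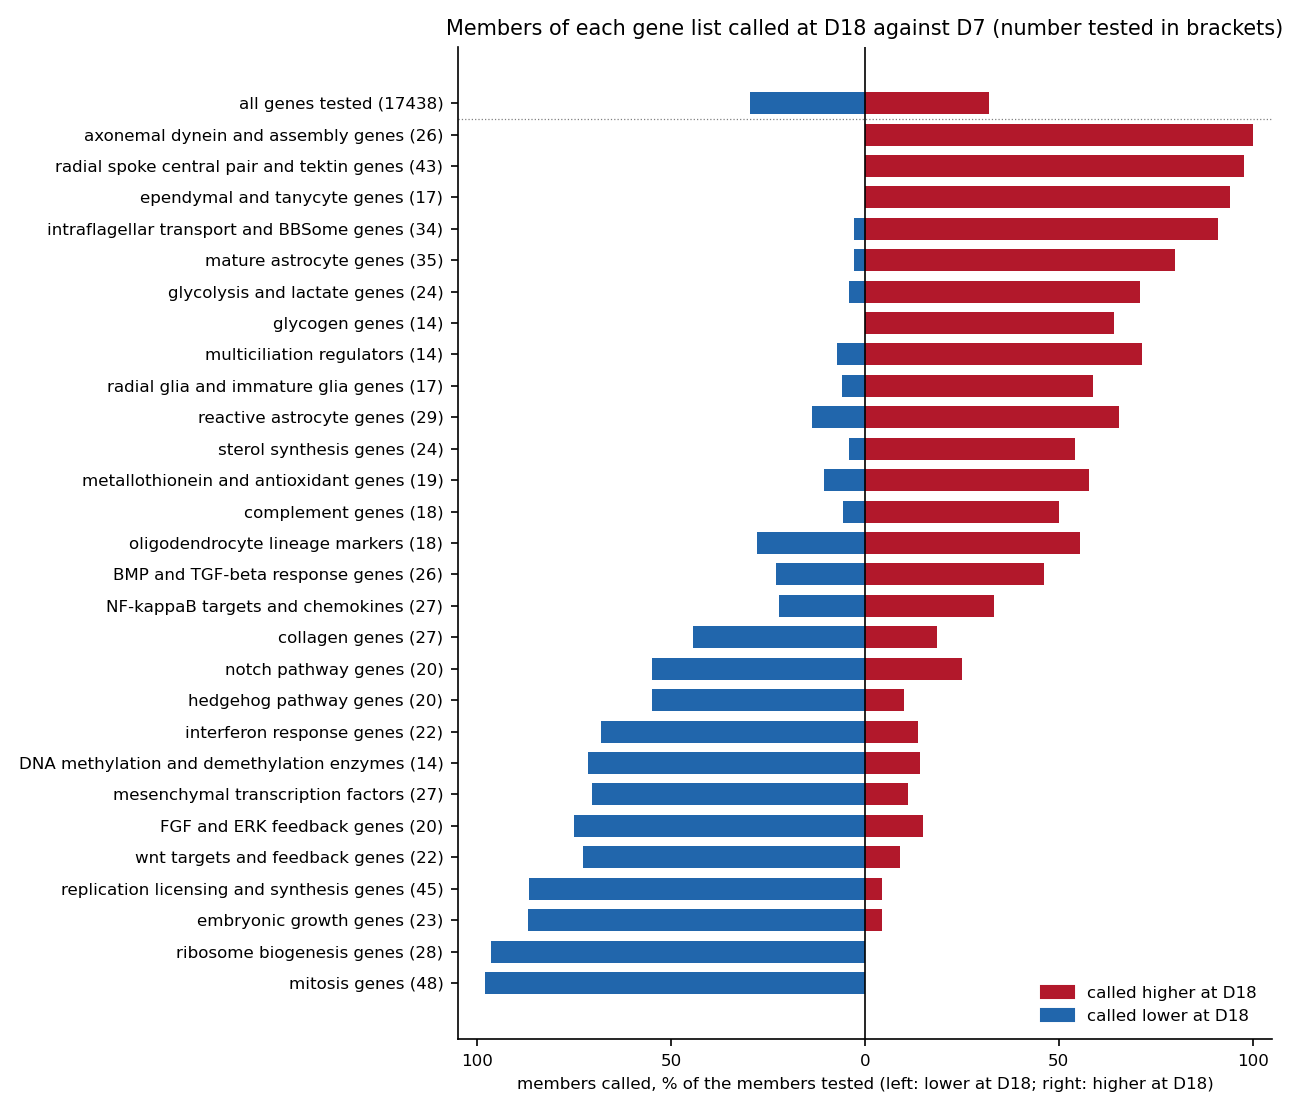
Share of the tested members of 28 gene lists called higher at D18 (red, to the right) or lower at D18 (blue, to the left) by edgeR at an adjusted p under 0.05, with all 17438 genes tested in the top row (32.09% higher, 29.60% lower). Lists of motile cilia sit at the top, with 26 of 26 axonemal dynein genes higher, and mitosis genes sit at the bottom, with 47 of 48 lower.

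Genes of mature astrocytes rose together at D18. Of 35 such genes tested, 28 rose, 1 fell and 6 were not called, with a median log2 change of 2.72. Their summed level was 77104, 57242 and 67705 CPM in D18 replicates 1 to 3, against 6751, 7757 and 6440.4 CPM in D7 replicates 1 to 3. The astrocyte filament gene Gfap had 31178, 20177 and 28350.3 CPM at D18, against 321, 353 and 319 CPM at D7 (log2 change 6.35, SE 0.23, edgeR adjusted p = 1.78e-06). Aqp4, the water channel of astrocyte end-feet, had 2206, 1975 and 2311 CPM at D18, against 54.1, 114 and 43.5 CPM at D7 (log2 change 4.96, SE 0.40, edgeR adjusted p = 5.45e-05). Each D18 library was far above each D7 library for both genes, and D18 replicate 2 was the lowest of its group. The secreted chaperone clusterin, Clu, had 6359, 4984 and 5446 CPM at D18, against 96.9, 79.8 and 104.7 CPM at D7 (log2 change 5.92, SE 0.18, edgeR adjusted p = 1.14e-06). Gjb6, which encodes the astrocyte gap junction protein connexin 30, had 72.4, 68.7 and 66.1 CPM at D18, against 0.652, 0.409 and 0.0471 CPM at D7, a log2 change of 7.59 (SE 0.47). Gpr37l1, an astrocyte receptor, changed by 7.02 (SE 0.40), and the inward rectifier potassium channel gene Kcnj10 by 4.10 (SE 0.50), both on the log2 scale.

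The list was not uniform. Grm3, a glutamate receptor gene of astrocytes, fell, with 3.45, 2.93 and 3.16 CPM at D18, against 22.4, 26.7 and 23.7 CPM at D7. Sparcl1, which encodes the secreted protein hevin, was abundant on both days and did not pass, with 2289, 1123 and 2371 CPM at D18, against 1277, 1387 and 1259 CPM at D7 (log2 change 0.58, SE 0.26, edgeR adjusted p = 0.0895); without D18 replicate 2, its lowest D18 library, it passed with a log2 change of 0.85, as it did in the 5-group model (0.56). The glutamine synthetase gene Glul was at 295 ± 35.1 CPM at D18 and 305 ± 67.4 CPM at D7 (SD, n = 3 each) and did not pass. The glutamate transporter genes Slc1a2 and Slc1a3 rose by log2 changes of 2.00 (SE 0.24) and 0.98 (SE 0.14). D18 replicate 2 was the lowest D18 library for 25 of the 35 genes and replicate 1 the highest for 23.

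Transcription factors of the astrocyte lineage changed less and in both directions. Of 15 tested, 8 rose, 3 fell and 4 were not called, with a median log2 change of 0.43. Id4, an inhibitor of basic helix-loop-helix factors, rose with 294, 154 and 239 CPM at D18, against 11.8, 18.4 and 6.05 CPM at D7 (log2 change 4.26, SE 0.44, edgeR adjusted p = 1.76e-04). Sox9, a factor needed to start gliogenesis, had 344, 402 and 549 CPM at D18, against 158, 171 and 140.1 CPM at D7 (log2 change 1.49, SE 0.18). Nfia, which acts with Sox9 in the developing spinal cord, had 147, 135 and 139 CPM at D18, against 81.0, 98.4 and 70.1 CPM at D7 (log2 change 0.78, SE 0.13). Zbtb20, which favours astrocyte formation in the cortex, rose by 2.66 (SE 0.17). Hes5, a Notch target of neural progenitors, fell and was low on both days, with 0, 0.0533 and 0 CPM at D18, against 1.03, 1.204 and 1.06 CPM at D7. Sox8 fell with 11.4, 18.4 and 21.1 CPM at D18, against 35.8, 36.4 and 35.7 CPM at D7 (log2 change -1.06, SE 0.21). Lhx2 fell by a log2 change of -1.41 (SE 0.42). All libraries of D18 lay above those of D7 for Id4, Sox9, Nfia and Zbtb20.

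Radial glia, the progenitors from which astrocytes arise, share several of these genes. Of 17 tested, 10 rose, 1 fell and 6 were not called, with a median log2 change of 0.60, and 3 fell with library totals alone or in the 5-group model. Nes, the filament nestin of neural progenitors, had 809, 830.3 and 925 CPM at D18, against 227, 155 and 254 CPM at D7 (log2 change 2.03, SE 0.18, edgeR adjusted p = 6.08e-05). Vim, the filament vimentin, had 11308, 9418 and 11468 CPM at D18, against 3259, 3032 and 3264 CPM at D7 (log2 change 1.77, SE 0.13, edgeR adjusted p = 2.68e-05). D18 libraries lay above D7 libraries for both. Prom1, which encodes the membrane protein CD133, rose by 2.60 (SE 0.13) on the log2 scale. Tnc, a matrix glycoprotein gene of radial glia and of injured tissue, had 185, 967 and 323 CPM at D18, against 1313, 1092 and 1341 CPM at D7 and did not pass, though it fell by 2.29 on the log2 scale without D18 replicate 2, and was also called lower with limma-voom (log2 change -1.67), the 5-group model (-1.34) and the replicate block (-1.69). The D18 libraries differed widely from each other for Tnc, and all lay below the D7 libraries.

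Genes that astrocytes switch on after injury or inflammation also rose. Of 29 reactive astrocyte genes tested, 19 rose, 4 fell and 6 were not called, with a median log2 change of 1.55, and Gfap and Vim are on this list too. Lcn2, the iron-binding secreted protein lipocalin 2, had 3180.0, 5986 and 3295 CPM at D18, against 74.6, 62.1 and 65.8 CPM at D7 (log2 change 5.97, SE 0.31, edgeR adjusted p = 7.28e-06). C3, the central complement protein, had 13073, 7180.0 and 10401 CPM at D18, against 795, 768 and 789 CPM at D7 (log2 change 3.72, SE 0.23, edgeR adjusted p = 1.21e-05). Serpina3n, a secreted protease inhibitor, rose by 3.11 (SE 0.24) and S1pr3, a sphingosine phosphate receptor gene, by 4.51 (SE 0.16) on the log2 scale. D18 replicate 2 was the highest D18 library for 19 of the 29 genes. Falls were seen in Emp1, an epithelial membrane protein gene, with a log2 change of -2.30 (SE 0.29), and in Fkbp5, a target of glucocorticoids, with -1.88 (SE 0.34).

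Among intermediate filaments, which give cells their mechanical strength and mark cell types, the glial genes rose and the neuronal ones fell. Of 16 genes tested, 7 rose, 8 fell and 1 was not called. Synm, which encodes synemin, a partner of vimentin and GFAP, rose by 2.88 (SE 0.19). Nefm, the medium neurofilament, fell with 1.35, 1.41 and 1.14 CPM at D18, against 50.9, 13.0 and 33.9 CPM at D7. Nefl, the light one, changed by -4.08 (SE 0.83). The nuclear lamin gene Lmnb1, which is high in dividing cells, fell by a log2 change of -2.19 (SE 0.15), and Lmna, its relative, by -1.60 (SE 0.19). The keratin genes Krt8, Krt18 and Krt19 of simple epithelia rose by 1.49 (SE 0.35), 2.55 (SE 0.28) and 3.41 (SE 0.34).

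More genes of young brain matrix fell than rose. Of 17 neuroepithelial matrix genes tested, 2 rose, 7 fell and 8 were not called, with a median log2 change of -0.32. Ncan, the brain proteoglycan neurocan, had 15.1, 6.88 and 9.20 CPM at D18, against 232, 166 and 259 CPM at D7 (log2 change -4.38, SE 0.32, edgeR adjusted p = 3.90e-05). Hapln1, which links such proteoglycans to hyaluronan, had 0.112, 0.107 and 0.0570 CPM at D18, against 3.31, 3.27 and 3.48 CPM at D7. Every D18 library lay below every D7 library for both.

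**Figure D2:**
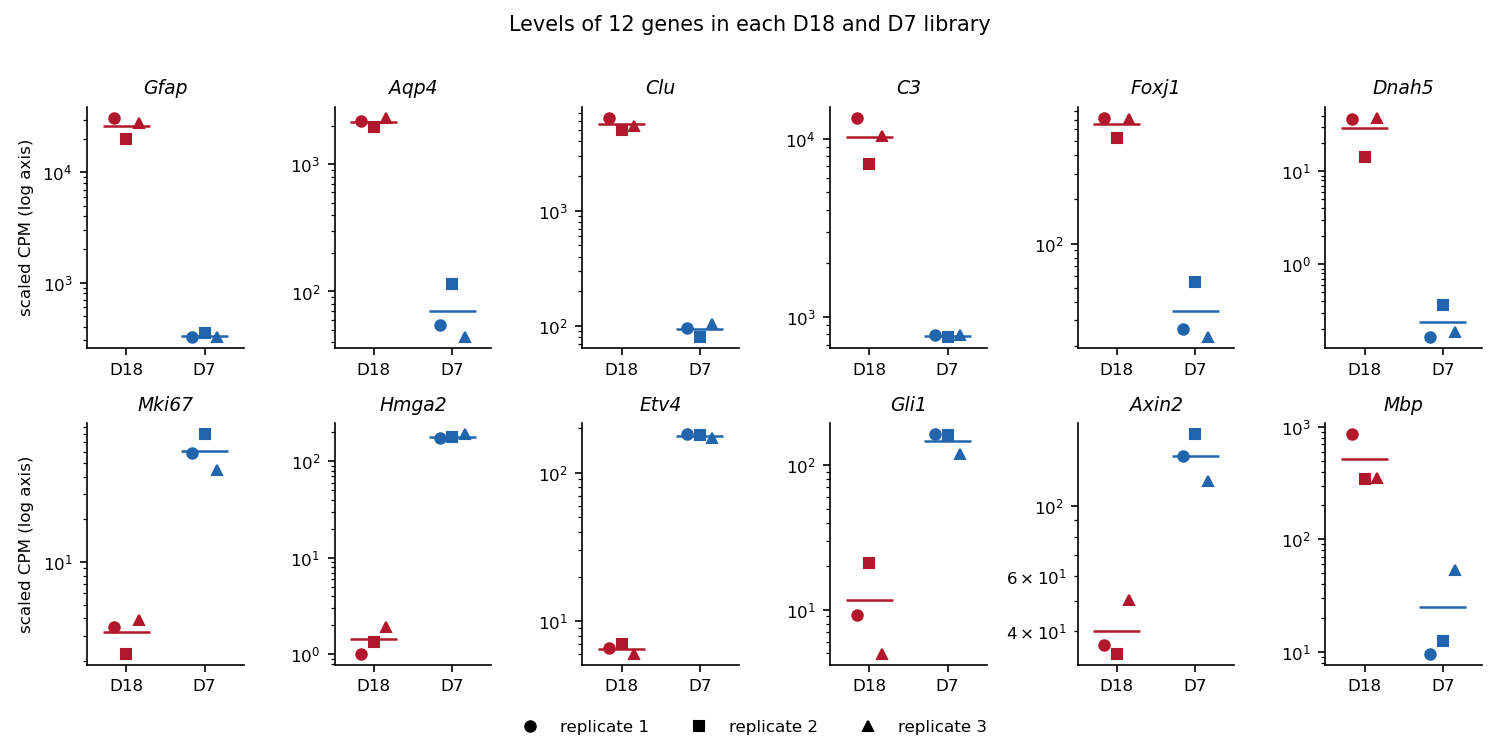
Scaled CPM on log axes of 12 genes in each D18 library (red, left) and each D7 library (blue, right), with a symbol per replicate and a line at the group mean. The 3 D18 libraries lie above the 3 D7 libraries for Gfap, Aqp4, Clu, C3, Foxj1, Dnah5 and Mbp, and below them for Mki67, Hmga2, Etv4, Gli1 and Axin2.

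The machinery of motile cilia rose almost in full. Of 26 genes for axonemal dyneins and their assembly factors tested, 26 rose, 0 fell and 0 were not called, with log2 changes of 1.55 to 8.85 and a median of 4.86. Of 43 genes for radial spokes, the central pair and tektins tested, 42 rose, 0 fell and 1 was not called, with a median of 5.75. Foxj1, the master regulator of motile cilia, had 718, 524 and 708 CPM at D18, against 26.1, 54.3 and 22.9 CPM at D7 (log2 change 4.26, SE 0.37, edgeR adjusted p = 7.76e-05). Dnah5, a heavy chain of the outer dynein arm, had 36.9, 14.3 and 37.7 CPM at D18, against 0.163, 0.363 and 0.188 CPM at D7 (log2 change 6.94, SE 0.53, edgeR adjusted p = 4.21e-05). Another outer arm heavy chain gene, Dnah9, had 104.7, 35.4 and 81.5 CPM at D18, against 0.570, 0.613 and 0.447 CPM at D7. Hydin, which encodes a protein of the central pair, rose by 7.06 (SE 0.58) on the log2 scale, and Rsph4a, a radial spoke head gene, by 7.54 (SE 0.54). Dynein genes summed to 1134, 614 and 1037 CPM in D18 replicates 1 to 3, against 69.3, 91.9 and 58.6 CPM in D7 replicates 1 to 3, so D18 replicate 2 held the least in its group and every D18 library still lay above every D7 library. Replicate 2 was the lowest D18 library for 25 of the 26 dynein genes and 42 of the 43 spoke and tektin genes. Tekt2, a tektin gene, was the member that did not pass, with 1.71, 1.57 and 2.28 CPM at D18, against 3.12, 3.09 and 2.47 CPM at D7, and it passed as a fall without D18 replicate 3 (log2 change -0.81), by DESeq2 (-0.625), in the 5-group model (-0.641) and with library totals alone (-0.85).

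A list of multiciliation genes held mostly regulators, with the tektin gene Tekt1 and the uncharacterised Fam216b besides. Of 14 tested of 18 listed, 10 rose, 1 fell and 3 were not called, and both of those genes rose. Gmnc, which acts at the top of the multiciliation programme, had 4.16, 1.28 and 3.53 CPM in D18 replicates 1 to 3 and 0 counts over the D7 libraries, so it was at least 122-fold higher at D18, with 3 counts over all D7 libraries taken as the floor. Trp73, the p53 relative that switches on Foxj1 and Rfx genes, rose by 5.34 (SE 0.46). The RFX factor genes Rfx2, Rfx3 and Rfx4 rose by log2 changes of 2.39 (SE 0.20), 1.23 (SE 0.15) and 1.68 (SE 0.25). Intraflagellar transport, the traffic of cargo along all cilia, moved by smaller steps: of 34 such genes tested, 31 rose, 1 fell and 2 were not called, with a median log2 change of 0.95. Bbs1, a subunit of the BBSome coat, had 81.6, 65.4 and 91.0 CPM at D18, against 17.9, 26.9 and 18.9 CPM at D7 (log2 change 1.92, SE 0.19, edgeR adjusted p = 9.71e-05). Ttc21b, a subunit of the retrograde transport complex, was the member that fell, with 12.5, 13.0 and 10.9 CPM at D18, against 14.99, 18.0996 and 15.9 CPM at D7, a call lost without D18 replicate 3, D7 replicate 2 or D7 replicate 3 (log2 changes -0.356, -0.337 and -0.44).

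RFX factors bind a DNA element called the X-box, and 4 promoters are shown because these ciliary genes rose while RFX factor genes rose with them. The full X-box searched was the palindrome made of GTTNCC, any 2 bases and the reverse complement GGNAAC, and the short X-box was GTTGCC, which can lie inside the full one, both on either strand of the 250 bases before and 50 bases after each RefSeq start. The 60-base windows are from RefSeq on GRCm38.p6, written 5′ to 3′ on the strand of the gene, with every match in capitals, of the full X-box in Pifo and Ccdc151 and of the short X-box in Tekt1 and Ccdc153.
Pifo, chr3:106001498-106001557, gene on the minus strand: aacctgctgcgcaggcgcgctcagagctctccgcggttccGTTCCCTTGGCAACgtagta
Ccdc151, chr9:22002635-22002694, gene on the minus strand: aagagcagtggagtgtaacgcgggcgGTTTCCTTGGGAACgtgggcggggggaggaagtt
Tekt1, chr11:72361883-72361942, gene on the minus strand: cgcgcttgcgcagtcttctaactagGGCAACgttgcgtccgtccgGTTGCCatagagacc
Ccdc153, chr9:44240498-44240557, gene on the plus strand: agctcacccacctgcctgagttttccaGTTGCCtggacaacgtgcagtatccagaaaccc
Tekt1, a tektin gene, rose by 8.30 (SE 0.48) on the log2 scale, Ccdc151, a dynein docking gene, by 2.90 (SE 0.24), and Ccdc153, an ependymal marker, by 8.37 (SE 0.59). Pifo, a ciliary gene, had 26.8, 15.2 and 21.1 CPM in D18 replicates 1 to 3 and 2 counts over the D7 libraries (ratio 1289.9, exact 95% interval 357 to 10658). The short X-box was present in the promoters of 20 of 36 radial spoke and tektin genes with a RefSeq promoter (55.6%) and 7 of 22 dynein genes (31.8%). It was in those of 15 of 30 intraflagellar transport genes (50%) and 9 of 15 genes of the multiciliation list (60%). Of the 12446 genes tested that have a RefSeq promoter, 1895 (15.2%) held it. In the same order of lists, the full X-box was in 1, 1, 2 and 0 promoters, against 78 (0.627%) of those 12446 genes. These are matches of letters and no test was made of binding.

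Other genes of ependymal cells and tanycytes rose as well. Of 17 tested of 19 listed, 16 rose, 0 fell and 1 was not called, with a median log2 change of 4.17. Aqp4, S100b and Sox2 stand on glial lists too, and Acta2 on the BMP and TGF-beta list. Hdc, the enzyme that makes histamine, had 18.7, 13.1 and 21.3 CPM at D18, against 0.136, 0.182 and 0.0706 CPM at D7 (log2 change 7.08, SE 0.35). Cd24a, a surface protein of ependymal cells, had 358, 565 and 294 CPM at D18, against 26.1, 20.2 and 22.5 CPM at D7 (log2 change 4.17, SE 0.27). Rarres2, the secreted protein chemerin, rose by 4.44 (SE 0.36), and S100b, a calcium-binding protein of glia, by 5.44 (SE 0.29). The imprinted gene Nnat had 1001, 108 and 594 CPM at D18, against 69.3, 50.8 and 56.1 CPM at D7, the most uneven of these across D18 libraries, and its call was lost without the count filter.

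Genes of cell division fell. Of 48 mitosis genes tested, 0 rose, 47 fell and 1 was not called, with a median log2 change of -2.21. Of 45 genes for licensing and synthesis of DNA tested, 2 rose, 39 fell and 4 were not called, with a median of -1.37. Mki67, a protein of dividing nuclei, had 3.48, 2.24 and 3.87 CPM at D18, against 59.1, 79.4 and 44.5 CPM at D7 (log2 change -4.23, SE 0.29, edgeR adjusted p = 2.20e-05). Bub1, a spindle checkpoint kinase, had 0.590, 0.107 and 0.285 CPM at D18, against 6.33, 8.02 and 4.42 CPM at D7. Top2a, the topoisomerase of mitotic chromosomes, had 8.03, 5.68 and 8.95 CPM at D18, against 65.6, 83.3 and 58.6 CPM at D7. Summed over the 48 mitosis genes, the level was 204, 194 and 237 CPM in D18 replicates 1 to 3, against 772, 947 and 673 CPM in D7 replicates 1 to 3. Every D18 library was below every D7 library, and replicate 3 was the highest D18 library for 31 of the 48. Cdt1, a licensing factor, fell by a log2 change of -3.46 (SE 0.26), and the helicase genes Mcm2, Mcm5 and Mcm6 changed by -2.78 (SE 0.14), -2.86 (SE 0.17) and -2.37 (SE 0.19). Nuf2, a kinetochore gene, was the mitosis gene that did not pass, with 13.9, 9.95 and 14.8 CPM at D18, against 7.85, 11.2 and 6.64 CPM at D7, though it passed as a rise without D18 replicate 2 (log2 change 0.76) or D7 replicate 2 (log2 change 0.85), by DESeq2 (0.605) and without the count filter (0.599). Rpa1 and Gins4, which serve the replication fork, were the 2 that rose, by 0.85 (SE 0.13) and 0.63 (SE 0.11).

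Promoters of these genes are shown because the CHR element, TTTGAA, and E2F sites are bound by the DREAM complex, and Kif15, a mitotic kinesin gene, holds both side by side. The E2F sites searched were TTTGGCGC, TTTCCCGC and TTTCGCGC, each on both strands, in the same RefSeq windows, and capitals mark every match of the CHR in the first Kif15 line, Mki67 and E2f8, and of an E2F site in the others.
Kif15, chr9:122951021-122951080, gene on the plus strand: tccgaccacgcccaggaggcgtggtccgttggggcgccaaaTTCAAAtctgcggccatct
Kif15, chr9:122951021-122951080, gene on the plus strand: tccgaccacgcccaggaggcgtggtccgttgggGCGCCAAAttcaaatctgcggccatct
Mki67, chr7:135716445-135716504, gene on the minus strand: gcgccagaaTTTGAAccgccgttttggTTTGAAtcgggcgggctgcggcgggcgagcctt
E2f8, chr7:48881597-48881656, gene on the minus strand: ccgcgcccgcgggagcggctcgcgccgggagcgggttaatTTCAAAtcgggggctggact
Mcm6, chr1:128359719-128359778, gene on the minus strand: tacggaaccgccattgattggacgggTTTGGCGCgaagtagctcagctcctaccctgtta
Cdc6, chr11:98907987-98908046, gene on the plus strand: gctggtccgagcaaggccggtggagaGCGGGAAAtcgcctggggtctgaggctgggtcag
E2f8, a repressor of the E2F family made in S phase, had 0.758, 0.240 and 0.513 CPM at D18, against 20.5, 17.1 and 16.4 CPM at D7 (log2 change -5.14, SE 0.35), Kif15 changed by -3.91 (SE 0.28) and Cdc6, a licensing factor, by -2.82 (SE 0.32). The CHR letters were in 30 of 40 mitosis promoters (75%) and 6 of 36 replication promoters (16.7%). Of the 12446 genes tested that have a RefSeq promoter, 1807 (14.5%) held them. TTTGGCGC was in 6 of 36 replication promoters (16.7%) and 3 of 40 mitosis promoters (7.5%), against 125 (1%) of those 12446 genes. TTTCCCGC was in 7 of 36 replication promoters (19.4%) and 1 of 40 mitosis promoters (2.5%), against 263 (2.11%), and TTTCGCGC in 7 and 1, against 85 (0.683%). These shares describe letters in promoters, and binding was not measured.

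Genes that drive or restrain the entry into division were tested as 1 list. Of 27 DREAM subunits, pocket proteins, E2F factors, cyclins, their kinases, inhibitors and antiproliferative genes tested, 6 rose, 15 fell and 6 were not called. Rb1, the retinoblastoma protein, had 108, 131 and 112 CPM at D18, against 30.3, 40.2 and 27.7 CPM at D7 (log2 change 1.85, SE 0.16, edgeR adjusted p = 4.39e-05). Rbl2, the pocket protein p130 of the DREAM complex, rose by 0.74 (SE 0.12) and its partner gene Lin52 by 1.24 (SE 0.14), while Rbl1, the pocket protein p107, changed by -1.35 (SE 0.19). The G1 kinase Cdk6, which starts the cycle, fell with 20.6, 20.2 and 17.6 CPM at D18, against 127, 121 and 106 CPM at D7. Cdkn1a, the inhibitor p21, also fell, with 193, 253 and 155 CPM at D18, against 857, 855 and 868 CPM at D7 (log2 change -2.08, SE 0.18, edgeR adjusted p = 4.48e-05).

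Genes that drive growth in embryos fell, many of them targets of the let-7 microRNAs or imprinted genes. Of 23 tested of 25 listed, 1 rose, 20 fell and 2 were not called, with a median log2 change of -1.93. Hmga2, a chromatin protein of embryonic cells, had 1.01, 1.33 and 1.94 CPM at D18, against 172, 178 and 189 CPM at D7 (log2 change -6.95, SE 0.22, edgeR adjusted p = 1.14e-06). Its relative Hmga1 had 38.11, 74.5 and 47.9 CPM at D18, against 786, 678 and 917 CPM at D7. The RNA-binding protein genes Igf2bp1, Igf2bp2 and Igf2bp3 fell by log2 changes of -4.78 (SE 0.23), -2.56 (SE 0.11) and -3.80 (SE 0.23), and all D18 libraries lay under all D7 libraries for each. Dlk1, a paternally expressed imprinted gene, had 7.25, 4.16 and 6.04 CPM at D18, against 236, 169 and 229 CPM at D7. Nnat, also imprinted, was the member that rose. Lin28a, which blocks let-7 maturation, had 0 counts in all 6 libraries. H19, an imprinted noncoding RNA, had 1071, 521 and 136 CPM at D18, against 864, 704 and 994 CPM at D7 and did not pass.

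Genes of ribosome production were lower too. Of 28 genes for ribosome biogenesis tested, 0 rose, 27 fell and 1 was not called, with a median log2 change of -1.25 over the list. Npm1, the nucleolar protein nucleophosmin, had 91.8, 102 and 89.4 CPM at D18, against 539.9, 479.9 and 597 CPM at D7 (log2 change -2.49, SE 0.12, edgeR adjusted p = 4.73e-06). Fbl, the methylase fibrillarin, had 37.1, 32.9 and 33.6 CPM at D18, against 139, 103 and 143 CPM at D7. D18 replicate 2 was the highest of its group for 23 of the 28 genes, and every D18 sum stayed below every D7 sum, at 1073, 1278 and 1124 CPM in D18 replicates 1 to 3, against 3289.7, 2489 and 3576 CPM in D7 replicates 1 to 3. Eef1a1 and Eef2, translation elongation factors and among the 5 genes with most counts at D7, fell by log2 changes of -1.57 (SE 0.12) and -1.55 (SE 0.11). Eef1a1 stood at 2404 ± 128 CPM at D18 and 7263 ± 269.7 CPM at D7 (SD, n = 3 each). Npm1 and Eef1a1 have many processed copies in the genome, and how reads with several matches were counted is not stated, so their values are uncertain.

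Several of the pathways that M7 acts on were read out through their targets. The Wnt pathway, which CHIR-99021 activates, had lower target levels at D18. Of 22 tested of 24 listed targets, feedback genes and secreted antagonists, 2 rose, 16 fell and 4 were not called, with a median log2 change of -1.69. Axin2, a feedback inhibitor and standard Wnt target, had 36.2, 33.9 and 50.2 CPM at D18, against 144, 169 and 120.3 CPM at D7 (log2 change -1.83, SE 0.19, edgeR adjusted p = 1.14e-04). Lef1, a transcription factor of the pathway and its target, had 0.646, 0.907 and 0.370 CPM at D18, against 19.4, 17.96 and 16.8 CPM at D7. Nkd1, a feedback inhibitor, had 17.6, 11.3 and 14.1 CPM at D18, against 165, 174 and 139 CPM at D7. The D18 libraries of all 3 genes lay below the D7 libraries. Sfrp1, a secreted Wnt antagonist, rose with 609, 818 and 334 CPM at D18, against 11.2, 13.7 and 8.50 CPM at D7 (log2 change 5.74, SE 0.39, edgeR adjusted p = 2.90e-05), and Dkk3, a Dickkopf relative, rose by 1.08 (SE 0.23).

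Targets of FGF and the ERK kinase fell in the continued presence of bFGF. Of 20 genes tested on a list of such targets and of FGF receptors, 3 rose, 15 fell and 2 were not called, with a median log2 change of -1.70. The 3 that rose were receptor genes. Etv4, a transcription factor switched on by FGF, had 6.57, 7.04 and 6.04 CPM at D18, against 180.3, 179 and 172 CPM at D7 (log2 change -4.73, SE 0.10, edgeR adjusted p = 3.92e-07). Dusp6, the phosphatase that shuts off ERK, had 41.9, 31.9 and 21.6 CPM at D18, against 286, 285 and 275 CPM at D7. Spry1, a Sprouty inhibitor, had 27.4, 11.02 and 9.003 CPM at D18, against 132, 137 and 113 CPM at D7. The D18 libraries were below all D7 libraries for the 3 genes. Of the receptors, Fgfr3, the FGF receptor of astrocytes, rose by 2.45 (SE 0.12), Fgfrl1 by 1.64 (SE 0.17) and Fgfr2 by 0.35 (SE 0.09). Fgfr1 had 386, 381 and 357 CPM at D18, against 427, 424 and 349 CPM at D7 and did not pass. With library totals alone as the scale Fgfr2 was not called (log2 change 0.114) and Fgfr1 was called lower (-0.309).

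Hedgehog targets fell with the agonist Hh-Ag1.5 in the medium. Of 20 tested of 21 listed genes, 2 rose, 11 fell and 7 were not called, with a median log2 change of -0.75. Gli1, a transcription factor and direct target, had 9.27, 21.1 and 4.96 CPM at D18, against 162, 160.4 and 119.8 CPM at D7 (log2 change -3.62, SE 0.50, edgeR adjusted p = 6.33e-04). The receptor gene Ptch1, also a direct target, changed by -2.04 (SE 0.25). Hhip, an inhibitor that binds the ligand and a target, fell by a log2 change of -3.29 (SE 0.41). Gas1 and Boc, co-receptors, were the 2 that rose, by 0.47 (SE 0.15) and 0.29 (SE 0.11), and 0 members were called higher without D18 replicate 1, D18 replicate 3, D7 replicate 2 or D7 replicate 3, or with library totals alone. Boc also lost its call without D7 replicate 1, without the count filter and with RLE factors, DESeq2, the 5-group model or the replicate block. Smo, the receptor on which the agonist acts, had 230.1, 197 and 209 CPM at D18, against 187, 192 and 189.5 CPM at D7 and did not pass.

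The list for BMP and TGF-beta, whose receptors 2 of the compounds inhibit, held response genes and also ligand and antagonist genes. Of 26 tested, 12 rose, 6 fell and 8 were not called, with a median log2 change of 0.50. Id4, named above with the astrocyte factors, is also on it and rose by 4.26 (SE 0.44). The contractile genes of this list rose from low levels. Acta2, smooth muscle actin, had 108, 122 and 121 CPM at D18, against 10.998, 11.99 and 11.5 CPM at D7. Myl9, a myosin light chain, had 153, 103 and 129.7 CPM at D18, against 4.29, 5.2005 and 3.20 CPM at D7. In the starting fibroblasts Acta2 stood at 4590.1 ± 128 CPM (SD, n = 3), far above both days. The largest falls of the list were in ligand genes and an antagonist gene. The BMP ligand gene Bmp2 had 2.25, 5.17 and 2.96 CPM at D18, against 92.0, 113 and 89.7 CPM at D7. Tgfb1, a TGF-beta ligand gene, had 6.43, 12.11 and 4.99 CPM at D18, against 75.1, 65.4 and 77.7 CPM at D7. Grem1, a secreted BMP antagonist, had 2.58, 7.68 and 2.96 CPM at D18, against 147, 180.1 and 156 CPM at D7. Id1, a standard BMP target, rose by 0.50 (SE 0.15), a call lost without D18 replicate 1, D18 replicate 2, D7 replicate 1 or D7 replicate 3 (log2 changes 0.388 to 0.469), or with library totals alone (0.261). Id3, another such target, had 311, 360.2 and 231 CPM at D18, against 207, 259.8 and 185 CPM at D7 and did not pass, and it passed without D18 replicate 3 or D7 replicate 2 (log2 change 0.64 in each), and with RLE factors, DESeq2, the 5-group model or the replicate block (0.471 to 0.486).

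Notch genes and NF-kappaB targets moved both ways. Of 20 Notch genes tested, 5 rose, 11 fell and 4 were not called. Jag1, a ligand, fell with 9.52, 8.46 and 4.24 CPM at D18, against 89.7, 78.0 and 69.6 CPM at D7. Heyl, a target, fell with 0.197, 0.640 and 0.370 CPM at D18, against 8.12, 5.68 and 6.61 CPM at D7. Dtx1, a regulator of the receptor, rose with 112, 94.1 and 109.6 CPM at D18, against 19.4, 19.1 and 19.7 CPM at D7, and the targets Hey1 and Hey2 rose by 1.43 (SE 0.19) and 2.65 (SE 0.29). Of 27 tested of 28 listed NF-kappaB targets and chemokines, 9 rose, 6 fell and 12 were not called, with a median log2 change of -0.08. These are 33.3% and 22.2%, against 32.09% and 29.60% of all genes tested, so the rises were near background. Cxcl12, a chemokine made by stroma and glia, had 849, 728 and 309 CPM at D18, against 17.1, 16.1 and 13.46 CPM at D7 (log2 change 5.36, SE 0.41, edgeR adjusted p = 4.25e-05). Ccl2, which attracts monocytes, fell with 69.8, 104 and 34.3 CPM at D18, against 276, 316 and 299.8 CPM at D7. Ccl5, which attracts T cells, fell with 0.0562, 0.533 and 0.171 CPM at D18, against 9.56, 10.1 and 8.31 CPM at D7. Nfkbia, the inhibitor that NF-kappaB induces, had 153, 147 and 85.3 CPM at D18, against 93.5, 96.7 and 91.8 CPM at D7 and did not pass, though it rose by 0.68 on the log2 scale without D18 replicate 3. D18 replicate 3 was the lowest D18 library for 22 of the 27 genes.

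**Figure D3:**
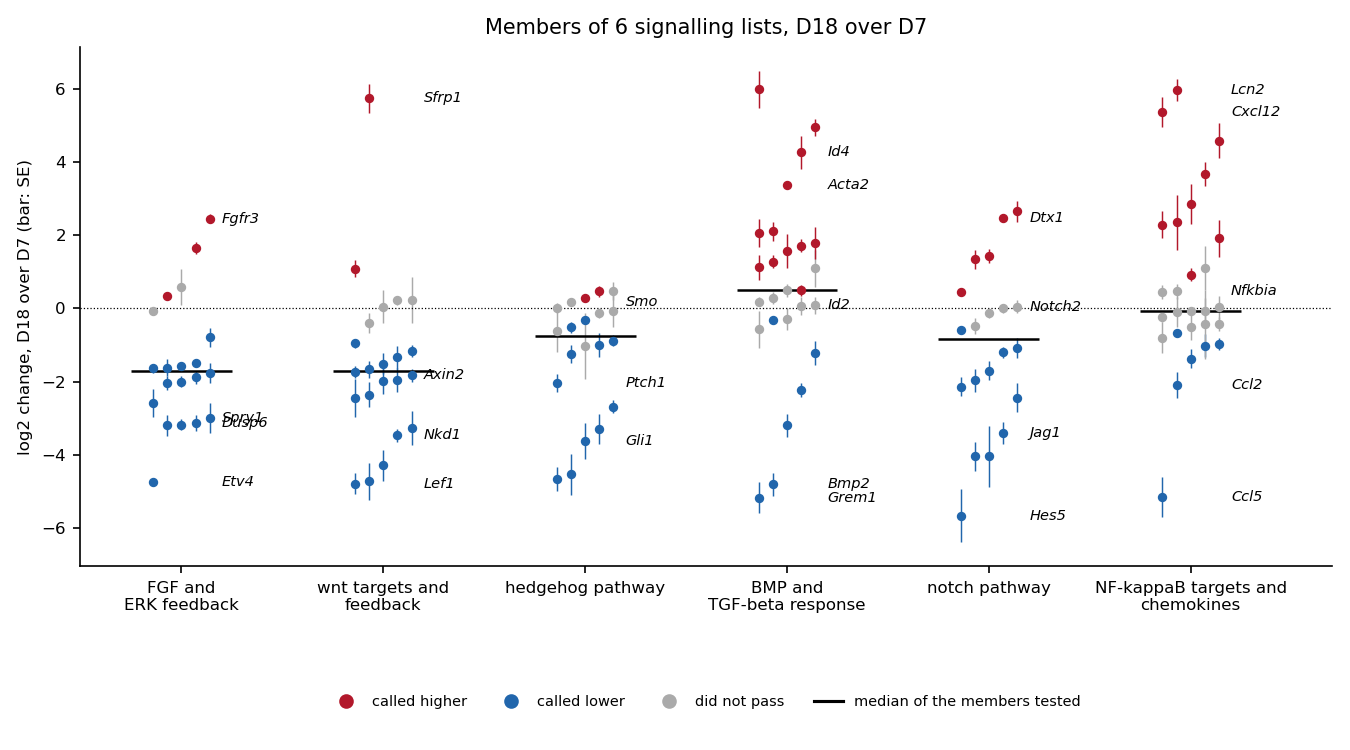
Log2 change, D18 over D7, of each tested member of 6 signalling lists, with its SE, coloured by the edgeR call (red higher, blue lower, grey did not pass), and a line at the median of the members tested. The medians lie at -1.70 for FGF and ERK feedback, -1.69 for Wnt, -0.75 for Hedgehog, 0.50 for BMP and TGF-beta, -0.83 for Notch and -0.08 for NF-kappaB targets.

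Enzymes that write and remove DNA methylation, the step RG108 inhibits, were mostly lower. Of 14 tested, 2 rose, 10 fell and 2 were not called, with a median log2 change of -0.84. The maintenance methylase Dnmt1 had 56.8, 76.5 and 69.7 CPM at D18, against 153, 131 and 159 CPM at D7 (log2 change -1.10, SE 0.13, edgeR adjusted p = 2.42e-04). Uhrf1, which brings Dnmt1 to replicated DNA, had 12.19, 9.39 and 10.8 CPM at D18, against 61.3, 43.8 and 65.0 CPM at D7. Dnmt3a, a de novo methylase, changed by -1.42 (SE 0.09) and Tet2, which oxidises methylcytosine, by -1.23 (SE 0.12). Hells, a remodelling helicase high in dividing cells, fell by a log2 change of -2.99 (SE 0.37).

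Oligodendrocytes, the myelin-forming glia, were represented at both ends of their lineage. Of 18 markers tested, 10 rose, 5 fell and 3 were not called. Genes of progenitors fell. The transcription factor gene Olig1 had 91.1, 90.5 and 103 CPM at D18, against 257, 330.0 and 268 CPM at D7 (log2 change -1.57, SE 0.12). Its relative Olig2, which specifies the lineage, had 28.8, 37.9 and 29.1 CPM at D18, against 128, 155 and 132 CPM at D7 (log2 change -2.09, SE 0.14). Cspg4, the proteoglycan NG2 of progenitors, had 9.16, 15.6 and 10.3 CPM at D18, against 120.1, 52.3 and 187 CPM at D7. Genes of myelin rose. Mbp, myelin basic protein, had 853, 344 and 349.6 CPM at D18, against 9.59, 12.4 and 52.9 CPM at D7 (log2 change 4.39, SE 0.77, edgeR adjusted p = 0.0021). Mobp, a protein of compact myelin, had 88.0, 22.7 and 28.6 CPM at D18, against 0.163, 0.227 and 0.0941 CPM at D7. Mag, a myelin surface protein, had 102, 53.9 and 50.4 CPM at D18, against 0.869, 1.02 and 4.21 CPM at D7. The D18 libraries were above the D7 libraries for all 3 myelin genes, and D18 replicate 1 was the highest of its group for 13 of the 18 markers. Pdgfra, the growth factor receptor of progenitors and of fibroblasts, had 136, 130.4 and 45.8 CPM at D18, against 112, 146 and 119 CPM at D7 and did not pass, with a log2 change of -0.25, or 0.0889 without D18 replicate 3.

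Neuron markers summed to 361, 319 and 376 CPM in D18 replicates 1 to 3, against 393, 389 and 342 CPM in D7 replicates 1 to 3. These sums were above those of every MEF, D32 and P-RPE library (96.0 to 246 CPM). Of 22 tested of 23 listed markers, 3 rose, 7 fell and 12 were not called. Dcx, a microtubule protein of young neurons, fell with 1.52, 0.8002 and 0.570 CPM at D18, against 10.9, 6.68 and 8.05 CPM at D7. Rbfox3, the nuclear antigen NeuN, fell with 0.814, 1.71 and 0.285 CPM at D18, against 22.5, 22.3 and 16.6 CPM at D7. Neurod1, a neuronal transcription factor, had 0 counts over the D18 libraries and 103 over the D7 libraries, at least 30.1-fold lower. Stmn2, a neuronal growth-associated gene, rose with 23.3, 61.2 and 34.6 CPM at D18, against 7.33, 4.77 and 8.19 CPM at D7.

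More junction, transporter and channel genes rose than fell. Of 17 tested of 18 listed gap and tight junction genes, 10 rose, 3 fell and 4 were not called, with a median log2 change of 1.25. Gja1, connexin 43, had 1095, 864 and 989 CPM at D18, against 199, 206 and 191 CPM at D7 (log2 change 2.33, SE 0.12, edgeR adjusted p = 6.01e-06). Cldn1, a tight junction claudin, fell with 1.85, 1.76 and 0.513 CPM at D18, against 15.04, 22.2 and 18.22 CPM at D7. Of 17 tested of 18 listed amino acid and neurotransmitter transporters, 8 rose, 3 fell and 6 were not called, with 5 lower in place of 3 by DESeq2, by limma-voom or with library totals alone. Slc38a1, a glutamine carrier, rose with 1167, 783 and 1285 CPM at D18, against 191, 286 and 183 CPM at D7. Slc7a11, the cystine and glutamate exchanger, fell with 7.64, 28.6 and 9.23 CPM at D18, against 74.5, 92.5 and 74.5 CPM at D7. Among 15 tested of 18 listed potassium and chloride channels, 8 rose, 3 fell and 4 were not called, with 1 member lower in place of 3 without D18 replicate 3 or without D7 replicate 1, and 5 lower with library totals alone. Slc12a2, which loads cells with chloride, had 332, 735 and 513 CPM at D18, against 49.2, 46.9 and 52.4 CPM at D7.

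Epithelial and cadherin genes were split. Of 18 tested of 21 listed such genes, 10 rose, 6 fell and 2 were not called. Crb2, a polarity protein of neuroepithelium, had 189, 140.0 and 216 CPM at D18, against 4.26, 5.63 and 3.69 CPM at D7 (log2 change 5.34, SE 0.23, edgeR adjusted p = 4.61e-06). Jup, plakoglobin of cell junctions, had 95.9, 80.1 and 104 CPM at D18, against 35.0, 50.8 and 35.1 CPM at D7. Dsp, the desmosome protein desmoplakin, fell with 0.169, 0.427 and 0.114 CPM at D18, against 2.06, 3.54 and 1.88 CPM at D7. Cdh2, N-cadherin, rose by 0.78 (SE 0.09) and Cdh11, a cadherin of mesenchyme, fell by a log2 change of -1.07 (SE 0.31), a call lost without D7 replicate 1 or 2 (log2 changes -1.04 and -0.979). D18 and D7 libraries did not overlap for Crb2, Jup and Dsp.

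Genes of sugar metabolism rose. Of 24 glycolysis and lactate genes tested, 17 rose, 1 fell and 6 were not called, with a median log2 change of 0.96, and of 14 glycogen genes tested, 9 rose, 0 fell and 5 were not called, with a median of 0.98. Aldoc, the brain aldolase and an astrocyte marker, had 2845, 1674 and 2469 CPM at D18, against 197, 277 and 216 CPM at D7 (log2 change 3.36, SE 0.23, edgeR adjusted p = 2.06e-05). Slc16a1, the lactate carrier MCT1, had 596, 598 and 540.5 CPM at D18, against 109.7, 77.8 and 109 CPM at D7. Pygb, the brain glycogen phosphorylase, had 1081, 692 and 1054 CPM at D18, against 201, 263 and 184 CPM at D7. Eno2, the enolase of neurons, fell with 27.6, 32.22 and 26.1 CPM at D18, against 83.1, 78.8 and 66.9 CPM at D7. D18 libraries did not overlap D7 libraries for these 4 genes.

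Metal-binding and antioxidant genes were mostly higher. Of 19 tested, 11 rose, 2 fell and 6 were not called. The metallothionein gene Mt1 had 2682, 3616 and 1976 CPM at D18, against 239.8, 265 and 188 CPM at D7. Mt3, the metallothionein of brain, had 1283, 921 and 1084 CPM at D18, against 31.1, 41.1 and 31.8 CPM at D7. Prdx6, a peroxiredoxin of astrocytes, had 3942, 2686 and 3554 CPM at D18, against 72.9, 78.9 and 79.6 CPM at D7 (log2 change 5.48, SE 0.18, edgeR adjusted p = 1.40e-06). Of 24 sterol synthesis genes tested, 13 rose, 1 fell and 10 were not called, with a median log2 change of 0.48. Apoe, the main lipid carrier of brain and among the 5 genes with most counts at D18, rose with 9304, 7138 and 6771 CPM at D18, against 1318, 1453 and 1317 CPM at D7. Abca1, which exports cholesterol onto lipid carriers, fell with 169, 136 and 133 CPM at D18, against 449, 596 and 402 CPM at D7. Abcg1, another cholesterol exporter, fell with 2.25, 1.76 and 0.684 CPM at D18, against 32.5, 46.9 and 31.2 CPM at D7. None of these 3 genes had overlapping groups.

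Lysosome and stress genes had shares of rises near the 32.09% of all genes tested, and clock genes had a larger share. Of 29 tested of 30 listed lysosome genes, 9 rose, 11 fell and 9 were not called, with a median log2 change of -0.06. Ctsb, cathepsin B, had 5303, 6125 and 4679 CPM at D18, against 1663, 1723 and 1470.1 CPM at D7 (log2 change 1.75, SE 0.14, edgeR adjusted p = 4.01e-05), and Gla, alpha-galactosidase A, changed by -2.45 (SE 0.13). Of 25 clock and nuclear receptor genes tested, 11 rose, 5 fell and 9 were not called, so 44% rose and 20% fell. Rarb, a retinoic acid receptor, rose with 6.74, 4.21 and 7.18 CPM at D18, against 0.109, 0.431 and 0.165 CPM at D7, and Rxrg, a retinoid X receptor, fell with 1.49, 2.51 and 1.28 CPM at D18, against 30.8, 32.7 and 28.5 CPM at D7. Of 17 lipid transport genes tested, 7 rose, 5 fell and 5 were not called. Of 26 immediate early and stress genes tested, 8 rose, 5 fell and 13 were not called. In these stress genes D18 replicate 1 was the highest D18 library for 23 and replicate 3 the lowest for 23 of the 26. Their calls were unstable: with single libraries left out, 4 to 9 rose and 0 to 8 fell, and 4 rose and 8 fell with library totals alone. Fos, the classic early gene, had 2029, 1316 and 1123 CPM at D18, against 1059, 1411 and 929.5 CPM at D7 and did not pass.

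The number of rises among collagens depended on D18 replicate 3. Of 27 collagen genes tested, 5 rose, 12 fell and 10 were not called, and 9 rose without that library. Their summed level was 17979.6, 17437 and 5465 CPM in D18 replicates 1 to 3, against 21436, 20136 and 20945 CPM in D7 replicates 1 to 3; D18 replicate 3 stood far below the other 5 libraries. Replicate 3 was the lowest D18 library for 19 of 27 collagens and 21 of 24 fibroblast matrix genes. Col1a1, the main fibrillar collagen, had 2787, 3526 and 783 CPM at D18, against 2839, 2453 and 2677 CPM at D7 and did not pass, with a log2 change of -0.15, or 0.25 without D18 replicate 3. Col6a3, of the microfibrils, fell with 207, 359.5 and 78.5 CPM at D18, against 2350.2, 2393 and 2465 CPM at D7. Col18a1, of basement membranes, fell with 280.2, 308 and 107 CPM at D18, against 2132, 2119 and 2045 CPM at D7. Col8a2, a short-chain collagen, rose with 60.5, 24.17 and 32.4 CPM at D18, against 0.625, 0.4996 and 0.188 CPM at D7 (log2 change 6.50, SE 0.52, edgeR adjusted p = 5.27e-05). Fmod, the collagen-binding proteoglycan fibromodulin, rose with 941, 657 and 734 CPM at D18, against 2.77, 3.32 and 2.02 CPM at D7. D18 and D7 libraries did not overlap for the last 4 genes, replicate 3 included.

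Matrix proteases and their inhibitors moved both ways, and transcription factors of mesenchyme were mostly lower. Of 25 matrix proteases and inhibitors tested, 8 rose, 10 fell and 7 were not called. These are 32% and 40%, against 32.09% and 29.60% of all genes tested, so the rises were at background. Mmp9, the gelatinase B gene, fell with 3.31, 2.93 and 2.39 CPM at D18, against 148, 116 and 124 CPM at D7. The collagenase gene Mmp13 fell with 4.24, 2.21 and 1.37 CPM at D18, against 84.0, 86.8 and 85.7 CPM at D7. Timp4, an inhibitor of such enzymes, rose with 97.3, 63.8 and 70.9 CPM at D18, against 22.2, 34.4 and 13.6 CPM at D7. Of 27 mesenchymal transcription factors tested, 3 rose, 19 fell and 5 were not called, with a median log2 change of -1.28. Twist1, which keeps cells mesenchymal, had 48.2, 33.7 and 23.2 CPM at D18, against 115, 76.3 and 68.3 CPM at D7, and its call was lost without the count filter. Runx2, the bone factor, had 9.35, 11.9 and 6.35 CPM at D18, against 45.9, 44.6 and 40.7 CPM at D7. Prrx2, Osr1 and Msx1 were the 3 that rose, by 1.84 (SE 0.11), 1.66 (SE 0.21) and 1.63 (SE 0.19).

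More complement genes rose than fell, and more interferon genes fell than rose. Of 18 tested of 21 listed complement genes, 9 rose, 1 fell and 8 were not called, with a median log2 change of 1.69, and 3 fell without D18 replicate 3. C4b, which acts ahead of C3, had 1918, 1258 and 1592 CPM at D18, against 44.0, 43.0 and 50.2 CPM at D7 (log2 change 5.14, SE 0.19, edgeR adjusted p = 1.89e-06). Serping1, the inhibitor of the C1 complex, had 1657, 1297 and 843 CPM at D18, against 85.6, 68.7 and 62.1 CPM at D7. C1qb, made by macrophages, had 0.112, 0 and 4.39 CPM at D18, against 0.597, 0.999 and 0.471 CPM at D7 and did not pass; without D18 replicate 3 it fell by 3.57 on the log2 scale. The macrophage markers summed to 54.7, 117 and 92.4 CPM in D18 replicates 1 to 3, against 33.7, 36.4 and 38.5 CPM in D7 replicates 1 to 3. Of 11 tested of 18 listed macrophage markers, 2 rose, 0 fell and 9 were not called, while 7 fell without D18 replicate 3 and 2 in the 5-group model. Replicate 3 was the highest D18 library for 8 of the 11. Those that rose were Cd14, a receptor for bacterial lipopolysaccharide, with 38.7, 71.7 and 44.1 CPM at D18, against 11.1, 11.3 and 14.5 CPM at D7, and P2ry12, a receptor of microglia, with 4.21, 2.93 and 3.87 CPM at D18, against 0.543, 0.727 and 0.377 CPM at D7. Ptprc, the leukocyte surface protein CD45, was near 0 on both days and not tested, with 0, 0 and 0.171 CPM at D18, against 0.326, 0.590 and 0.188 CPM at D7. Mrc1, the mannose receptor of macrophages, had 0.112, 0.213 and 5.53 CPM at D18, against 0.706, 0.772 and 0.400 CPM at D7, did not pass, and fell by 1.91 on the log2 scale without D18 replicate 3. The part of these cells in the complement result was not tested.

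Of 22 interferon response genes tested, 3 rose, 15 fell and 4 were not called, with a median log2 change of -0.94. Irf7, a transcription factor of the response, had 10.7, 6.001 and 5.13 CPM at D18, against 33.2, 40.2 and 29.8 CPM at D7 (log2 change -2.22, SE 0.28, edgeR adjusted p = 3.48e-04). Bst2, the membrane tether tetherin, had 40.9, 37.7 and 37.0 CPM at D18, against 124, 111 and 98.3 CPM at D7. Of 14 tested of 16 listed antigen presentation genes, 3 rose, 7 fell and 4 were not called. B2m, the light chain of class I molecules, had 308, 249.8 and 202 CPM at D18, against 1333, 1226 and 1196 CPM at D7 (log2 change -2.29, SE 0.16, edgeR adjusted p = 2.22e-05). Nlrc5, which switches class I genes on, had 14.1, 10.1 and 14.4 CPM at D18, against 44.7, 59.7 and 43.5 CPM at D7. The D18 libraries lay below the D7 libraries for each of these 4.

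Markers of the protocol's stated end point stayed low. Of 9 tested of 20 listed RPE and pigment markers, 4 rose, 1 fell and 4 were not called. They summed to 100.99, 111 and 95.9 CPM in D18 replicates 1 to 3, against 77.2, 74.4 and 79.3 CPM in D7 replicates 1 to 3, and to 71866 and 64697 CPM in P-RPE. Rdh5, a retinol dehydrogenase of the visual cycle, rose with 43.2, 50.8 and 45.4 CPM at D18, against 5.59, 10.3 and 4.17 CPM at D7. Mertk, the receptor for engulfing photoreceptor debris, fell with 7.61, 5.07 and 8.83 CPM at D18, against 41.3, 37.1 and 45.8 CPM at D7. Of 9 tested of 14 listed eye-field transcription factors, 2 rose, 5 fell and 2 were not called. Pax6, a factor of eye and neural progenitors, had 39.9, 39.8 and 45.5 CPM at D18, against 17.3, 20.2 and 9.96 CPM at D7 (log2 change 1.42, SE 0.24, edgeR adjusted p = 0.00157), a call lost with all 14 libraries in the model (edgeR adjusted p = 0.0541).

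Markers of other cell types were low or split. Of 9 tested of 14 listed choroid plexus markers, 3 rose, 2 fell and 4 were not called. Aqp1, a water channel of choroid plexus and other epithelia, rose with 114, 275 and 82.8 CPM at D18, against 37.6, 35.7 and 28.0 CPM at D7. Of 15 neural crest and Schwann cell markers tested, 6 rose, 6 fell and 3 were not called. Of 16 mesenchymal and pericyte markers tested, 3 rose, 5 fell and 8 were not called, with 3 falls without any 1 of the D7 libraries and 2 without the count filter. Pdgfrb, a receptor of pericytes and fibroblasts, had 71.3, 68.1 and 32.9 CPM at D18, against 165, 152 and 163 CPM at D7. Of 11 tested of 16 listed skeletal muscle markers, 2 rose, 2 fell and 7 were not called. The red cell markers had too few counts to test, with sums of 0.112, 0.453 and 0.313 CPM in D18 replicates 1 to 3, against 0.570, 0.2498 and 0.471 CPM in D7 replicates 1 to 3.

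Many genes of body position did not pass. Of 36 tested of 39 listed HOX genes, which record position along the body axis, 5 rose, 8 fell and 23 were not called, with 3 higher without D7 replicate 3 or with library totals alone, 8 higher without D18 replicate 1 and 4 lower without D7 replicate 1. Of 24 tested of 29 listed neural tube patterning factors, 7 rose, 6 fell and 11 were not called. En2, a factor of midbrain and cerebellum, had 35.0, 49.1 and 44.3 CPM at D18, against 4.10, 2.16 and 3.77 CPM at D7 (log2 change 3.71, SE 0.26, edgeR adjusted p = 2.20e-05). Nkx6-2, of ventral neural tube and glia, rose with 24.7, 45.3 and 48.5 CPM at D18, against 0.923, 1.93 and 2.87 CPM at D7. Nkx2-9, of the ventral midline, fell to low levels with 0.112, 0 and 0.0570 CPM at D18, against 0.597, 1.07 and 0.706 CPM at D7.

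The steepest rises were led by ciliary genes, genes of other tissues and uncharacterised genes. Fam216b had 132, 83.8 and 151.02 CPM in D18 replicates 1 to 3 and 0 counts over the D7 libraries, at least 4988-fold higher, and the noncoding RNA C230072F16Rik had 34.2, 25.8 and 36.9 CPM in D18 replicates 1 to 3, at least 1322-fold higher. Gas2l2, which orients motile cilia, was at least 719-fold higher, and Dmkn, the epidermal secreted protein dermokine, at least 643-fold higher, both with 0 counts at D7. The 15 steepest rises included 2 cartilage genes. Cnmd, chondromodulin, had 103, 23.2 and 45.2 CPM at D18, against 0.109, 0 and 0.0471 CPM at D7 (log2 change 10.12, SE 0.92). Ucma, a secreted protein of cartilage, had 119.9, 23.3 and 73.3 CPM at D18, against 0.0543, 0.136 and 0 CPM at D7 (log2 change 10.07, SE 0.95), and both were lowest in D18 replicate 2 of the D18 libraries. Otos, otospiralin of the inner ear, had 36.6, 50.97 and 96.3 CPM at D18, against 0.0543, 0.0454 and 0.0706 CPM at D7. Tfr2, an iron sensor of liver and red cell precursors, had 24.0, 17.8 and 21.2 CPM in D18 replicates 1 to 3 and 2 counts at D7 (ratio 1292, exact 95% interval 357 to 10672).

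The steepest falls held matrix, vascular and neuronal genes. Mmp10, a matrix metalloproteinase, had 0.169, 0.133 and 0.0285 CPM at D18, against 21.0, 24.3 and 22.6 CPM at D7 (log2 change -7.61, SE 0.33, edgeR adjusted p = 3.78e-06). Sox7, a SoxF factor of endothelium, had 0.281, 0.16003 and 0.0570 CPM at D18, against 19.4, 27.4 and 25.7 CPM at D7. Its relative Sox18 had 0.112, 0.427 and 0.0570 CPM at D18, against 18.5, 15.03 and 11.9 CPM at D7. Of 9 tested of 14 listed endothelial markers, 0 rose, 4 fell and 5 were not called, and 2 rose without D18 replicate 3 or in the 5-group model. Nptx1, a secreted pentraxin of neurons, had 2.39, 2.61 and 1.71 CPM at D18, against 122, 61.7 and 159.9 CPM at D7. Nptx2, another, had 0.646, 0.854 and 0.570 CPM at D18, against 55.0, 30.4 and 38.102 CPM at D7. Chrna1, a subunit of the muscle acetylcholine receptor, had 0.0843, 0.187 and 0.114 CPM at D18, against 9.18, 14.6 and 10.8 CPM at D7. Slco4a1, an organic anion carrier, changed by -7.47 (SE 0.40) and the copine gene Cpne5 by -7.55 (SE 0.55). D18 libraries lay below all D7 libraries for each gene named here as a steepest fall, which their selection required.

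Across the series the D18 libraries held extreme levels of some lists and middle levels of others. The mature astrocyte genes summed to 1003, 1056 and 1011 CPM in MEF and 10482, 10439 and 9148 CPM at D32. In P-RPE they summed to 36514 and 36301 CPM, below each D18 library but above each D7 library. Clu was higher in both P-RPE libraries than in any D18 library, and Gfap was lower. The axonemal dynein genes summed to 32.8, 31.8 and 31.6 CPM in MEF and 178, 152 and 179.9 CPM at D32. All these sums, and those of the dynein genes in P-RPE, were below the D18 values above. Mitosis genes summed to 3894, 3677 and 3791 CPM in MEF and 1408, 1065 and 1028 CPM at D32, above each D18 library, while P-RPE, with 136 and 135 CPM, was below. Medium and time change together between D18 and D32, so their parts cannot be told apart there.

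**Figure D4:**
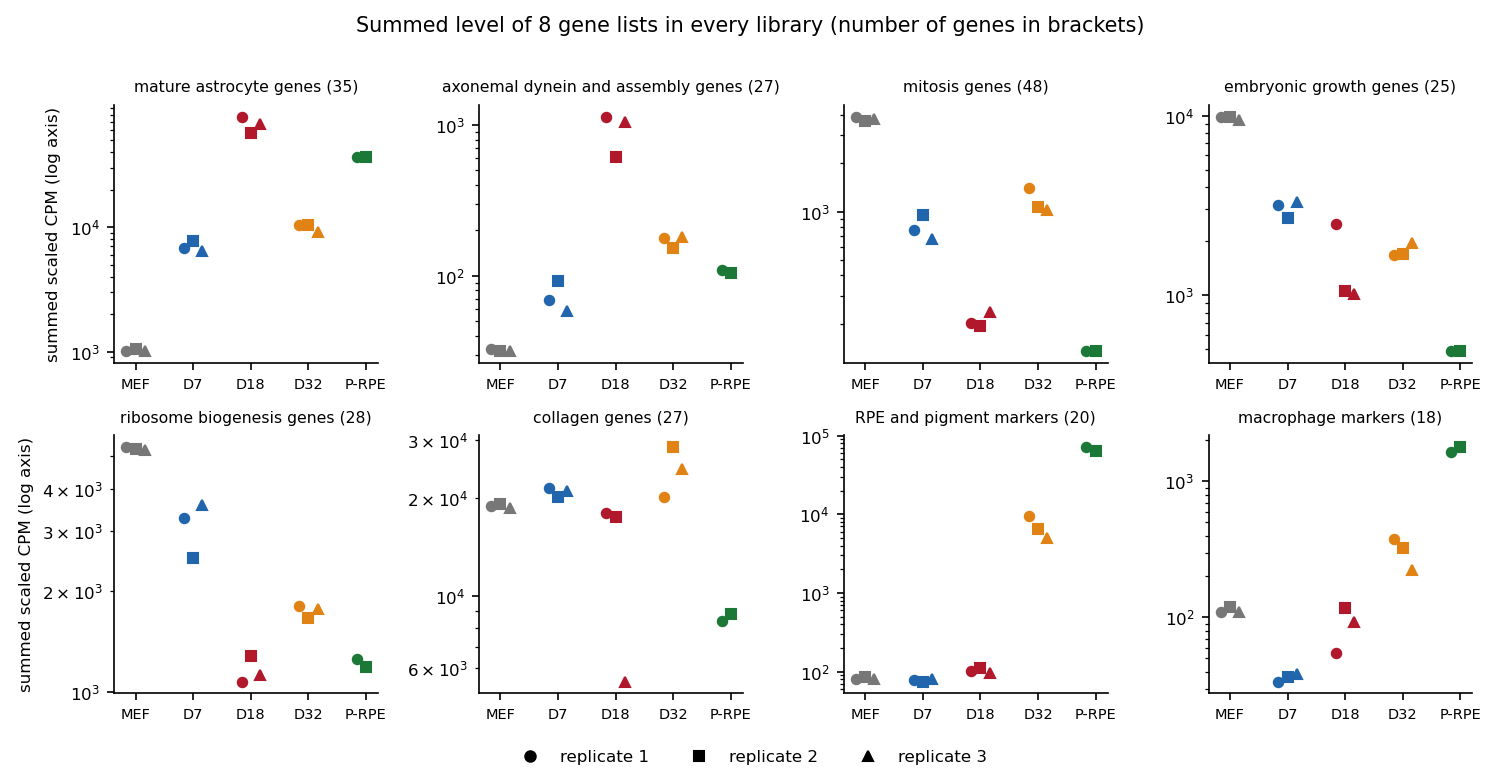
Summed scaled CPM on log axes of 8 gene lists in every library, in the order MEF, D7, D18, D32 and P-RPE, with a symbol per replicate. Mature astrocyte and axonemal dynein genes peak at D18, collagen genes are lowest in D18 replicate 3, and RPE and pigment markers at D18 (95.9 to 111 CPM) remain near D7 (74.4 to 79.3 CPM).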

How the data were processed

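D18 and D7, with 3 libraries each, were compared among 14 mouse RNA-seq libraries of 5 groups. TRIzol extraction, column purification, a NEBNext Ultra library kit and paired-end reads are given in the labels' protocols. The deposited table has raw counts for 55291 gene symbols, per the labels and by its whole numbers. Per the submitters' processing notes, STAR 2.7.11a, featureCounts of Subread, edgeR 4.0.16 and limma 3.58.1 were used with builds mm10, GRCm38 and GRCh38. Strand setting, multiple matches and annotation release are not given in the sources used here, so genes that overlap or have near-identical copies (Dnah7a and Dnah7b, Saa1 and Saa2, class I genes) are uncertain. Another table with 10 human columns was not used here.

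Genes were kept with edgeR's filterByExpr on the 6 libraries, which left 17438, and fitted with edgeR 4.0.16 in R 4.3.3: TMM scaling, 2 group means, no replicate block, robust quasi-likelihood F test, Benjamini-Hochberg adjustment over all genes, called under 0.05. The SE is the size of the log2 change over the square root of F. CPM use TMM-scaled sizes of all 14 libraries. With 0 counts in a group, folds are bounds against 3 counts over the group; with 1 to 3, the ratio has an exact 95% interval, and both cover counting error only. The fit was also run on simulated counts with equal dispersion in both groups and few changed genes. These data differ in both respects, so that run does not measure accuracy here.

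The members and gene lists were chosen with earlier results of these data known. A gene can be in several lists. Named genes were drawn from several sets, and not all members of these sets are named. The sets were the 15 highest and 15 lowest changes with a mean of at least 10 CPM and no overlap, and 24 lineage genes. They also held each list's 3 largest called changes each way, its uncalled member with most counts, and the 5 most abundant genes of each group. Other genes named were chosen after their values were seen. Alternatives were RLE factors, library totals, no filter, a mean of at least 5 CPM, DESeq2 1.42.0, limma-voom, a 5-group model, a replicate block and leaving out each library.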

Additional observations from a re-analysis of the deposited data

How the results depend on the processing

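The direction of the comparison held under each alternative: of the 10758 genes called, 0 were called the other way under any setting. Total calls ranged from 8067 (a mean of at least 5 CPM, 11768 genes tested) to 11645 (all 14 libraries, 20562 genes tested), and from 9231 to 10650 when each library was left out. With that mean required, low genes were not tested. Falls on the Notch, mesenchymal factor, neuron, eye-field and intermediate filament lists numbered 4, 11, 3, 1 and 4 in place of 11, 19, 7, 5 and 8. Falls on the neuroepithelial matrix, HOX, neural tube patterning and astrocyte transcription factor lists numbered 4, 4, 2 and 1 in place of 7, 8, 6 and 3. Rises on the cadherin and epithelial list and the RPE list numbered 6 and 2 in place of 10 and 4. Skeletal muscle markers had 0 rises and 0 falls in place of 2 and 2. Calls of 2-fold or more numbered 2089 higher and 1392 lower, in place of 3532 and 2528. Leaving out each library gave 3412 to 3687 of these higher and 2276 to 2653 lower, with 4947 to 5536 genes higher and 4284 to 5142 lower at any fold. Of 1159 distinct list genes, 1081 were tested and 795 called, with 676 to 825 under the other settings and 726 to 811 with a library left out. Library totals alone and DESeq2 called 11078 and 10993 genes. With library totals alone, Fgfr2, Gas1, Boc and Id1 were not called, and Fgfr1 and Tekt2 were called lower; without the count filter, Nnat, Twist1, Cdh11, Ttc21b and Boc were not called.

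Same-numbered D18 and D7 replicates did not deviate together (correlations 0.01, -0.14 and -0.04 for pairs 1, 2 and 3). With 3 replicates per group, these values cannot show whether same-numbered samples shared an origin. With the replicate block, 9719 genes were called, 782 of them on the lists.

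Reversals touched 6 named genes that had not passed. With limma-voom and with the block, C1qb changed by -1.81 and -0.879 and Mrc1 by -0.184 and -0.0855. Leaving out each library gave -3.57 to 1.71 for C1qb, -1.91 to 2.2 for Mrc1, -0.56 to 0.252 for Col1a1, -0.515 to 0.0889 for Pdgfra and -0.145 to 0.163 for Glul, with the sign turned by D18 replicate 3 in the first 4 and by D18 replicates 2 and 3 and D7 replicate 2 in Glul. Smo changed by -0.0557 with library totals alone. The cause was not tested, and precision is limited by 3 libraries per group.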
